A study of Homo sapiens with 6 samples.

Results

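The genes described here are 55 genes of the G2 phase and mitosis, among them the mitotic kinesins, the spindle assembly checkpoint, the kinetochore and the kinases and cyclins that start mitosis. They were given as a list of symbols, and every probe set annotated to a symbol was taken. A named probe set was found for 54 of the 55, which made up 54 of the 7791 genes tested, and NUF2 is the member with none in the annotation used. The samples were 6 Affymetrix expression arrays of total RNA from the human breast cancer line MDA-MB-231, a triple-negative line of mesenchymal character. There were 2 arrays of S1a, 2 of S1b and 2 of the parental line. S1a and S1b are each labelled as 1 isolated population of seeder cells, tumour cells that return from the circulation to an established tumour. No transgene, knockdown or drug is labelled for any group, and all 3 groups were grown subconfluent in DMEM with 10% FBS. No isolated population of another kind was measured. The 2 arrays of a group carry the label of biological replicates, but no separate cultures are named, and p-values therefore cover the spread between these arrays alone, which may be technical.

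Entry into mitosis is driven by CDK1 bound to cyclin B, with help from the Aurora A and Polo-like kinases. Condensin compacts the chromosomes, kinesins and microtubule bundlers build the spindle, and kinetochores attach each chromosome to it. The spindle assembly checkpoint holds back CDC20 and the anaphase-promoting complex until every kinetochore is attached, after which securin and cyclin B are destroyed and the cell divides. The transcripts of these genes peak together late in the cell cycle. Many of their promoters carry a CHR element, read here as TTTGAA or TTCGAA, which the DREAM and B-MYB complexes bind through MuvB. It often lies near CCAAT boxes, which NF-Y binds. Proliferating cancer lines express the whole programme, and its level in a culture follows how many cells are in G2 and mitosis.

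The promoters below belong to the member with the largest called rise (PLK1), the member with the largest called fall (KIF4A), and the next members by p-value with a TTTGAA match (NDC80, HJURP and PRC1), to show letters that risen and fallen members have in common. Each is the RefSeq window of 300 bases on GRCh38.p14, 250 before and 50 after the annotated start, printed 5′ to 3′ on the strand of the gene. Capitals mark the CHR letters TTTGAA and, for the other strand, TTCAAA. They also mark the CHR variant TTCGAA, which reads the same on both strands. The CCAAT boxes are in capitals too, as is ATTGG, which is the same box on the other strand.
PLK1, chr16:23678639-23678938, plus strand: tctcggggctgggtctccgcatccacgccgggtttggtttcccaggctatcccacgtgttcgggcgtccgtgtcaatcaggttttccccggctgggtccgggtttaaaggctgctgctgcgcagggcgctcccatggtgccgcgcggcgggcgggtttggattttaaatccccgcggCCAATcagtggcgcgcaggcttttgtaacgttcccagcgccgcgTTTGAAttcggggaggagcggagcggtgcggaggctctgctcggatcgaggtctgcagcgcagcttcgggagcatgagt
KIF4A, chrX:70289854-70290153, plus strand: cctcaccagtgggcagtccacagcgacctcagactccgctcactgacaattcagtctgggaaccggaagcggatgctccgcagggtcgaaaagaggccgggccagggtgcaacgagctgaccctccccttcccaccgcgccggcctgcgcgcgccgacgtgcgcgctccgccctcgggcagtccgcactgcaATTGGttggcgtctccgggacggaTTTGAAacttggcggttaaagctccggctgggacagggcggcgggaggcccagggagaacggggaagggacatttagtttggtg
NDC80, chr18:2571307-2571606, plus strand: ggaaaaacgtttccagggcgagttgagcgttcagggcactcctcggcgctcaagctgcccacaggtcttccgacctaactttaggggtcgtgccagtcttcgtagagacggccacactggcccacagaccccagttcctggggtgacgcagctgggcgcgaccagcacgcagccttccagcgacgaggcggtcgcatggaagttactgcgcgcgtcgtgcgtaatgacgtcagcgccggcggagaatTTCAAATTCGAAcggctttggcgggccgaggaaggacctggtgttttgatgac
HJURP, chr2:233854486-233854785, minus strand: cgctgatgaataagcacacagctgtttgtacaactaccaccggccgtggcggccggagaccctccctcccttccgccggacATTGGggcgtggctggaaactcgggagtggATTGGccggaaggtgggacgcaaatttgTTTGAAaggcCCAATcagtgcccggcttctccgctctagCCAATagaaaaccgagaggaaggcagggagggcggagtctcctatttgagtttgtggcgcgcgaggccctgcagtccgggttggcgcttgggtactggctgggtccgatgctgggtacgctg
PRC1, chr15:90994486-90994785, minus strand: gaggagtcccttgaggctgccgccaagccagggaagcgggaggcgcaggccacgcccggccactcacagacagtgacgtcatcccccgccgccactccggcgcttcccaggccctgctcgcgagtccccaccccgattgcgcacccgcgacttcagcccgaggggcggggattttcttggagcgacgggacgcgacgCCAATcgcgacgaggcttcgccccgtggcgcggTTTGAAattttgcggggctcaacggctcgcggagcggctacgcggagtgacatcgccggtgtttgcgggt
In PLK1 the TTTGAA match began at position -29 from the start and a CCAAT at -73. KIF4A had the same arrangement, with TTTGAA at -34 and ATTGG, which is CCAAT on the other strand, at -58. PRC1 had TTTGAA at -20 and CCAAT at -53. NDC80 had TTCAAA at -3 directly followed by TTCGAA at 4 and no CCAAT, and HJURP had TTTGAA at -111 with 4 CCAAT or ATTGG matches around it.

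Of the 55 members, 47 had a promoter window (58 windows in all, since some had several starts) and 8 had none. Counting both strands, TTTGAA or TTCGAA was in 41 of the 58 member windows, 70.7%, against 16.4% of all 35116 windows and 13.7% of the 22199 windows of coding genes. CCAAT was in 69.0% of member windows, against 34.6% of all windows, and both together were in 53.4%, against 6.38%. The CHR letters were in 16 of the 19 members with a window that rose in the isolates, in 5 of the 5 that fell and in 14 of the 22 that did not pass the test. These matches describe letters in a window and are neither binding sites nor a cause of a change.

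Signals were MAS5 intensities on a linear scale. The trimmed mean was 500.2 on each array, so overall scaling was equal, while array medians ran from 86.6 to 90.9 signal units in the isolates, against 106 and 97.8 in parental cells. The 3′ to 5′ ratio of the GAPDH control probe sets, a measure of RNA integrity, was 0.976 to 0.998 in the isolates and 1.06 to 1.09 in parental cells. The spiked-in poly-A controls averaged 8.54 and 8.45 log2 units in S1a and 8.03 and 7.96 in S1b, against 7.42 and 8.21 in parental cells. The part of these differences in the results was not tested. Markers of MDA-MB-231 (VIM, CD44, LAMB3, CAV1, MSN and AXL) were past the filter for 6 of 6 and summed to 49806 to 56209 units in the isolates and 57225 to 61647 in parental cells. They did not move together. LAMB3 was higher on every isolate array (2630 to 3120 units, against 1856 and 2046), CD44 and CAV1 were lower on every one, and VIM, MSN and AXL overlapped. Of 4 genes that are low in this line, PGR and CDH1 stayed below the filter of 44.0 units on every array, while ESR1 and ERBB2 were past it. ESR1 gave 18.3 to 82.1 units in the isolates and 61.5 and 48.2 in parental cells, and ERBB2 147 to 188 in the isolates and 218 and 258 in parental cells. The summed signal of 5 fibroblast genes was 174 to 206 units in the isolates and 329 to 395 in parental cells, with LUM at 1.16 or less in the isolates and 51.6 and 34.8 in parental cells. For 3 leukocyte genes the sum was 61.1 to 146 units in the isolates and 139 to 158 in parental cells, and for 4 endothelial genes 126 to 162 and 80.9 to 119. Their part in the mitotic genes was not tested.

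Against the parental line, more mitotic genes were higher in the isolates than lower, and a few central ones were lower. With the mean of S1a and S1b set against parental in limma, 22 of 54 members rose and 5 fell at an adjusted p under 0.05, and 27 did not pass. These are 40.7% and 9.26% of the members, where over all 7791 genes tested 22.7% rose and 23.5% fell. The members are bright probe sets, with means of 493 to 11046 units. Among the 3743 genes at least as bright as the dimmest member, 32.6% rose and 25.2% fell. The median log2 change was 0.11 over the members and -0.03 over all genes tested. On the raw signals, all 4 isolate arrays lay above both parental arrays for 25 members, where 27% of all genes did so, and below both for 7 members, where 29.7% of all genes did. In RNA from bulk cultures, more cells in G2 and mitosis and more of a transcript per cell cannot be told apart.

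Whether the 5 falls were called depends on scaling, although none of the 5 changed sign under the 3 scalings tried. Centring each array on its median log2 signal moved the median of all genes up by 0.19 on the log2 scale and gave 28 members higher and 1 lower, with KIF4A the remaining fall. The calls over all genes moved the same way, with 34.6% higher and 14.0% lower. Quantile normalization gave 22 and 7 members, where 25.4% of all genes were higher and 20.9% lower. Cyclic loess gave 20 and 6, where 23.8% and 22.1% of all genes were higher and lower. Relative to the median of all genes, the members' median change was 0.13 as deposited and after centring and 0.08 under quantile and loess scaling. Of the 27 calls, 11 held in all 19 alternative settings, and 7 held in the 18 that gave them a value, since leaving out probe sets with shared-probe suffixes removes BUB3, CCNB1, CDC20, ECT2, KIF22, NCAPD2 and PRC1.

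**Figure D1:**
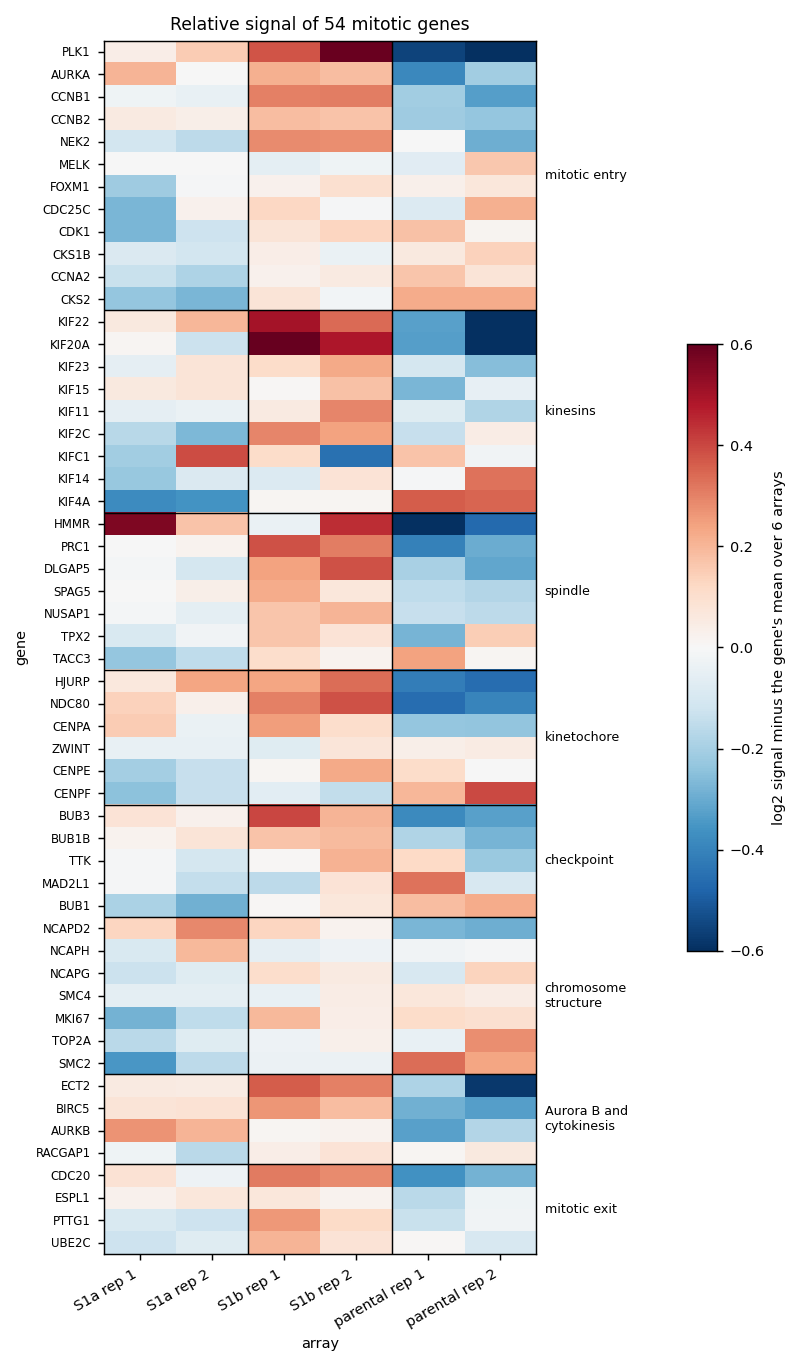
Relative signal of the 54 mitotic genes with a probe set. Columns are arrays (S1a, S1b, then parental), rows are genes grouped by role, and colour is the log2 signal minus the mean of that gene over the 6 arrays, with the scale ending at 0.6 on either side. The S1b columns are red over most rows, with 44 and 46 of 54 genes above their own mean, against 18 and 20 in S1a and 19 and 21 in parental cells.

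Among the 12 genes of CDK1, cyclins and mitotic entry, 4 rose and 1 fell. For this and each later role, 22.7% of all genes tested rose and 23.5% fell. Among genes at least as bright as the dimmest member these shares were 32.6% and 25.2%. Each role has few genes, so its counts are not read as particular to it. PLK1, the Polo-like kinase needed for centrosome maturation, spindle assembly and cytokinesis, gave 837 and 905 units in S1a and 1058 and 1230 in S1b, against 552 and 535 in parental cells. All 4 isolate arrays were above both parental arrays, and the change was 1.83-fold, 0.87 ± 0.094 on the log2 scale (SE; 4 arrays against 2; adjusted p = 5.96e-05). AURKA, the kinase of spindle poles, gave 5974 and 5175 units in S1a and 6007 and 5897 in S1b, against 3961 and 4485 in parental cells, and rose by 0.45 ± 0.085 (adjusted p = 0.00193). Its 3 probe sets had the same sign, and the call ended when probe sets with shared-probe suffixes were left out (0.29, adjusted p = 0.414).

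The B cyclins rose, and on the probe sets used the genes for their partner kinase and its small subunit did not rise with them. CCNB1, cyclin B1, gave 6603 and 6524 units in S1a and 8275 and 8309 in S1b, against 5822 and 5343 in parental cells (0.40 ± 0.072, adjusted p = 0.0013). CCNB2 gave 3606 and 3566 units in S1a and 3953 and 3916 in S1b, against 2999 and 2962 in parental cells (0.33 ± 0.067, adjusted p = 0.00254). For both, no isolate array reached down to a parental one. CDK1 gave 7280 and 8085 units in S1a and 9314 and 9637 in S1b, against 9961 and 8925 in parental cells, and the groups overlapped (-0.15 ± 0.082, adjusted p = 0.172). CKS2, a small CDK-binding subunit, gave 5658 and 5492 units in S1a and 7028 and 6584 in S1b, against 7757 and 7762 in parental cells, and fell by 0.33 on the log2 scale (SE 0.071, adjusted p = 0.00348). That fall was not called after median centring (-0.14, adjusted p = 0.258).

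FOXM1, a transcription factor of G2 and M genes, did not pass the test: it gave 804 and 929 units in S1a and 950 and 998 in S1b, against 953 and 978 in parental cells (-0.07 ± 0.089, adjusted p = 0.529). CCNA2, the A-type cyclin of S phase and G2, changed by -0.18 (adjusted p = 0.0605) and NEK2, a centrosomal kinase, by 0.22 (adjusted p = 0.0819). CDC25C, the phosphatase that activates CDK1, CKS1B and the kinase MELK lay between -0.15 and -0.07 and did not pass.

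Among the 9 kinesins, 3 rose and 1 fell. KIF20A, which carries the Aurora B complex to the central spindle, gave 1784 and 1618 units in S1a and 2703 and 2471 in S1b, against 1406 and 1124 in parental cells (0.74 ± 0.1, adjusted p = 0.00025). KIF22, a chromosome-bound motor that pushes chromosome arms from the poles, gave 492 and 544 units in S1a and 670 and 599 in S1b, against 377 and 274 in parental cells (0.83 ± 0.14, adjusted p = 0.000827). Its second probe set changed by 0.36 and did not pass (adjusted p = 0.19). KIF23, the motor of centralspindlin, gave 1129 and 1240 units in S1a and 1269 and 1374 in S1b, against 1093 and 981 in parental cells (0.27 ± 0.087, adjusted p = 0.0275). In S1a alone KIF23 did not pass in limma (0.19, adjusted p = 0.156). Its arrays did not overlap, but the call was lost in 5 of the 18 settings that gave it a value. They include leaving out S1a replicate 2 (0.24), S1b replicate 2 (0.24) or parental replicate 2 (0.19).

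KIF4A, a chromosome-bound motor that works with PRC1 at the central spindle, went the other way. It gave 804 and 814 units in S1a and 1052 and 1051 in S1b, against 1347 and 1331 in parental cells. All isolate arrays lay below both parental arrays and both S1b arrays above both S1a arrays. The fall was 1.45-fold, -0.54 ± 0.076 on the log2 scale (adjusted p = 0.000312). The remaining kinesins did not pass: KIF15 changed by 0.24, KIF11 by 0.19, KIF2C by 0.07, KIFC1 by -0.11 and KIF14 by -0.24.

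Among the 7 other spindle proteins, 5 rose and the 2 others, TPX2 and TACC3, did not pass. Against parental cells in limma, S1b alone had 5 rises, while S1a alone had 2 rises and 1 fall, TACC3. PRC1, which bundles antiparallel microtubules in the central spindle, gave 3714 and 3785 units in S1a and 4854 and 4614 in S1b, against 2808 and 3027 in parental cells (0.53 ± 0.071, adjusted p = 0.000232). HMMR, a spindle-associated protein also known as a hyaluronan receptor, gave 862 and 657 units in S1a and 566 and 795 in S1b, against 363 and 421 in parental cells (0.85 ± 0.16, adjusted p = 0.00147). Both of its probe sets rose. DLGAP5, which stabilizes kinetochore fibres, gave 3153 and 2953 units in S1a and 3756 and 4146 in S1b, against 2778 and 2561 in parental cells (0.38 ± 0.078, adjusted p = 0.00292). In S1a alone DLGAP5 did not pass in limma (0.19, adjusted p = 0.113).

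The spindle proteins NUSAP1 and SPAG5 were closer to the threshold. NUSAP1 gave 5219 and 5050 units in S1a and 5904 and 6049 in S1b, against 4770 and 4708 in parental cells (0.22 ± 0.068, adjusted p = 0.0212). Its other probe set had the opposite sign (-0.05, adjusted p = 0.628). SPAG5 gave 1626 and 1669 units in S1a and 1903 and 1707 in S1b, against 1466 and 1440 in parental cells (0.25 ± 0.077, adjusted p = 0.0248). In S1a alone NUSAP1 (0.12, adjusted p = 0.272) and SPAG5 (0.18, adjusted p = 0.133) did not pass in limma. Neither gene overlapped between isolates and parental cells, yet NUSAP1 lost its call in 5 and SPAG5 in 7 of the 19 settings. For NUSAP1 these include leaving out S1a replicate 1 (0.21), S1a replicate 2 (0.24) or S1b replicate 2 (0.22). For SPAG5 they include leaving out S1a replicate 1 (0.25), S1a replicate 2 (0.24), S1b replicate 1 (0.21) or parental replicate 2 (0.23).

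**Figure D2:**
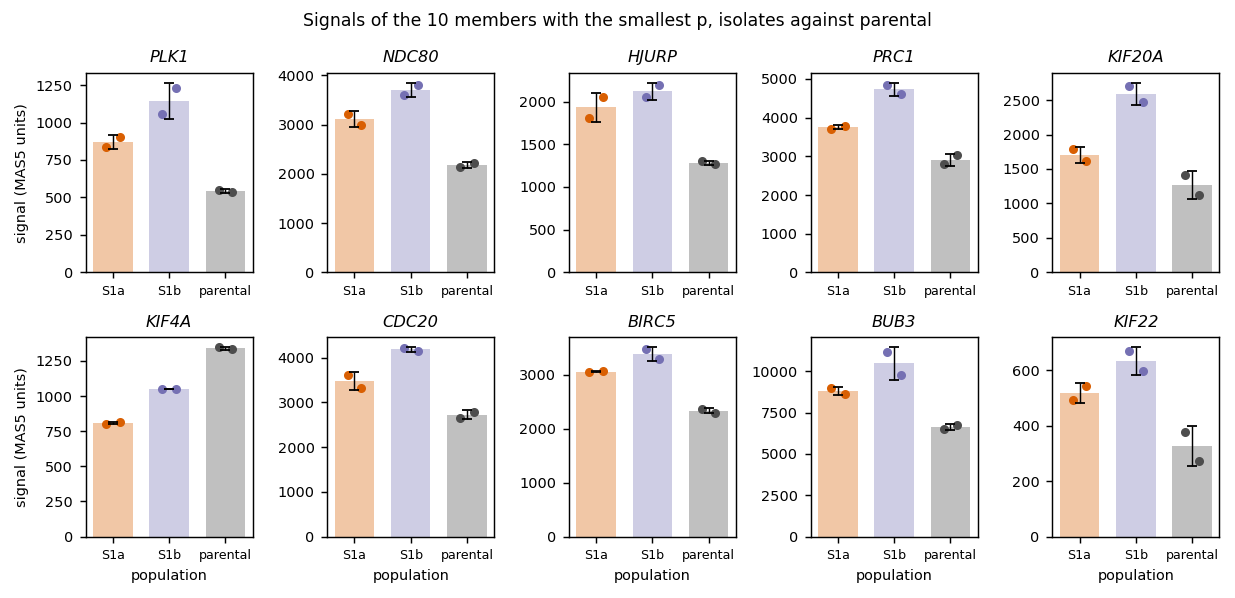
Signal in MAS5 units of the 10 mitotic genes with the smallest p-values in the comparison of the isolates with parental cells, each panel with its own axis from 0. Bars are means of 2 arrays, points are arrays and error bars are SD, with S1a in orange, S1b in purple and parental in grey. In 9 panels all isolate points lie above the parental points, and in the KIF4A panel they lie below.

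At the centromere and kinetochore, 3 of 6 genes tested rose and 1 fell. NDC80, the kinetochore subunit that grips microtubules, gave 3219 and 2989 units in S1a and 3609 and 3809 in S1b, against 2129 and 2221 in parental cells (0.64 ± 0.072, adjusted p = 7.62e-05). HJURP, the chaperone that deposits CENPA at centromeres, gave 1813 and 2051 units in S1a and 2050 and 2191 in S1b, against 1302 and 1266 in parental cells (0.65 ± 0.08, adjusted p = 0.000129). CENPA, the histone H3 variant it deposits, gave 719 and 629 units in S1a and 770 and 695 in S1b, against 550 and 548 in parental cells (0.35 ± 0.098, adjusted p = 0.0146). The chaperone and its cargo were thus both higher on every isolate array, although the CENPA call was lost without S1a replicate 1 (0.30). In S1a alone CENPA did not pass in limma (0.29, adjusted p = 0.0658). The only CENPA probe set has a suffix that marks probes shared with other transcripts, so its value is uncertain.

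CENPF, a large kinetochore protein that accumulates in G2, gave 1614 and 1740 units in S1a and 1834 and 1730 in S1b, against 2202 and 2519 in parental cells. It fell by 0.45 on the log2 scale (SE 0.083, adjusted p = 0.00164), with no overlap. A second, dimmer probe set also fell (-0.62, adjusted p = 0.00544), while the third, at 34.5 to 53.6 units in the isolates, changed by 0.013 (adjusted p = 0.982). Median centring ended the CENPF call. ZWINT, a scaffold of the outer kinetochore, and the kinetochore motor CENPE did not pass (-0.06 and -0.08).

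Of the 5 spindle assembly checkpoint genes, 2 rose and 1 fell. BUB3, which brings BUB1 and BUB1B to kinetochores, gave 8977 and 8614 units in S1a and 11175 and 9764 in S1b, against 6501 and 6750 in parental cells (0.53 ± 0.08, adjusted p = 0.000451). All 4 of its probe sets rose, by 0.53 to 0.65. BUB1B, the BubR1 protein, gave 1734 and 1804 units in S1a and 1930 and 1950 in S1b, against 1511 and 1409 in parental cells (0.34 ± 0.073, adjusted p = 0.00366). BUB1, the kinase that pairs with BUB3, gave 1986 and 1854 units in S1a and 2276 and 2376 in S1b, against 2576 and 2650 in parental cells, and fell by 0.31 (SE 0.072, adjusted p = 0.00609). The binding partners therefore had opposite signs, with no overlap for either on the probe sets used. The other BUB1 probe sets past the filter had the same negative sign, but their groups overlapped and they did not pass. With every probe set tested on its own in limma, these changed by -0.08 (adjusted p = 0.601) and -0.53 (adjusted p = 0.277). The BUB1 fall was not called after median centring (-0.12, adjusted p = 0.349). MAD2L1, the Mad2 protein that inhibits CDC20, gave 3707 and 3376 units in S1a and 3344 and 3942 in S1b, against 4676 and 3490 in parental cells, and the groups overlapped (-0.17 ± 0.12, adjusted p = 0.257). The kinase TTK changed by 0.08 (adjusted p = 0.581).

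In chromosome structure, 1 of 7 genes rose and 1 fell, 14.3% each, where 22.7% of all genes tested rose and 23.5% fell. NCAPD2, a condensin I subunit, gave 1051 and 1172 units in S1a and 1051 and 976 in S1b, against 795 and 783 in parental cells (0.42 ± 0.086, adjusted p = 0.00264). SMC2, an ATPase at the core of condensin, gave 670 and 766 units in S1a and 834 and 834 in S1b, against 1079 and 1007 in parental cells (-0.43 ± 0.09, adjusted p = 0.00327). Subunits of the same complex thus stood on opposite sides of the parental arrays. The SMC2 call was lost after median centring (-0.24), when its probe sets were averaged (-0.30) and without shared-probe suffixes (-0.16). The other condensin genes did not pass: SMC4 changed by -0.08, NCAPH by 0.02 and NCAPG by -0.03.

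TOP2A, the topoisomerase that untangles sister chromatids, gave 5833 and 6192 units in S1a and 6390 and 6667 in S1b, against 6320 and 7905 in parental cells (-0.17 ± 0.094, adjusted p = 0.157). MKI67, the Ki-67 protein that coats mitotic chromosomes and the usual histological marker of proliferation, gave 1022 and 1119 units in S1a and 1423 and 1280 in S1b, against 1342 and 1329 in parental cells (-0.15 ± 0.083, adjusted p = 0.16). The groups overlapped for both. Of the 4 MKI67 probe sets, 1 rose, by 0.61 (adjusted p = 0.00129 among all probe sets), and the others changed by -0.15, -0.08 and 0.07, so the direction for this gene depends on the probe set.

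Of the 4 genes of Aurora B, survivin and cytokinesis, 3 rose. BIRC5, survivin, which targets Aurora B to centromeres, gave 3057 and 3069 units in S1a and 3482 and 3293 in S1b, against 2373 and 2302 in parental cells (0.46 ± 0.069, adjusted p = 0.000437). ECT2, which activates RhoA for the cleavage furrow, gave 3417 and 3405 units in S1a and 4232 and 4064 in S1b, against 2892 and 2207 in parental cells (0.57 ± 0.1, adjusted p = 0.00122). AURKB, the kinase of the complex, gave 2247 and 2150 units in S1a and 1881 and 1895 in S1b, against 1487 and 1651 in parental cells (0.38 ± 0.076, adjusted p = 0.00259). The 3 did not overlap between isolates and parental cells, and for AURKB both S1b arrays lay below both S1a arrays. RACGAP1, which binds ECT2 and KIF23, gave 3506 and 3185 units in S1a and 3660 and 3768 in S1b, against 3595 and 3711 in parental cells (-0.05 ± 0.073, adjusted p = 0.585).

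Of the 4 genes of anaphase and mitotic exit, CDC20 passed. CDC20, the activator of the anaphase-promoting complex that the checkpoint inhibits, gave 3614 and 3332 units in S1a and 4225 and 4146 in S1b, against 2651 and 2797 in parental cells (0.48 ± 0.072, adjusted p = 0.000418). UBE2C, the ubiquitin-conjugating enzyme of that complex, gave 5451 and 5650 units in S1a and 6829 and 6289 in S1b, against 5957 and 5546 in parental cells (0.07 ± 0.074, adjusted p = 0.474). PTTG1, securin, gave 10301 and 10071 units in S1a and 13156 and 11898 in S1b, against 10015 and 10836 in parental cells (0.12 ± 0.079, adjusted p = 0.258). Its probe set has a suffix that marks probes shared with other transcripts, so this value is uncertain. The probe sets used for BUB3, CENPA and FOXM1 have the same suffix, and the same limit holds for their values. ESPL1, separase, changed by 0.14 (adjusted p = 0.217).

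Each isolate was also set against the same parental arrays, which both comparisons share. In S1a, 17 members rose and 9 fell, 31.5% and 16.7%, where 19.4% of all genes rose and 19.9% fell. The members' median was 0.02 on the log2 scale. That median was 0.065 without S1a replicate 1, 0.0095 without S1a replicate 2, 0.094 without parental replicate 1, 0.045 without parental replicate 2 and 0.20 after median centring. In S1b, 26 rose and 3 fell, 48.1% and 5.56%, where 20.7% of all genes rose and 20.9% fell, with a median of 0.22. No share among genes as bright as the members is given for either isolate alone, so these shares compare bright members with all genes. PLK1 changed by 0.68 ± 0.11 in S1a and 1.06 ± 0.11 in S1b, KIF20A by 0.43 ± 0.12 and 1.04 ± 0.12, and NDC80 by 0.51 ± 0.084 and 0.77 ± 0.084, and all of these passed. The 3 genes that fell in S1b were KIF4A (-0.35, adjusted p = 0.0103), CENPF (-0.40, adjusted p = 0.00753) and SMC2 (-0.32, adjusted p = 0.0314). The 9 that fell in S1a were these and CKS2, BUB1, CDK1, CCNA2, TACC3 and MKI67. For CDK1, CCNA2 and MKI67 the S1a call depends on the probe set. With every probe set tested on its own in limma, another MKI67 probe set rose in S1a (0.47, adjusted p = 0.0143). The remaining MKI67 ones changed by -0.05 and -0.20 and did not pass. The other CDK1 probe sets changed by -0.03 and 0.18 and the other CCNA2 one by -0.07, and none passed.

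CDK1 changed by -0.30 in S1a (adjusted p = 0.0306) and 0.01 in S1b (adjusted p = 0.961), and MKI67 by -0.32 (adjusted p = 0.0243) and 0.02 (adjusted p = 0.913). The S1b minus S1a difference itself did not pass for either (0.30, adjusted p = 0.16, and 0.33, adjusted p = 0.129), so they are not shown to differ between the isolates. The count of 26 in S1a rests on few arrays, and fewer members were called when either S1a array was left out. No share over all genes is given for those fits, so a general loss of calls cannot be told apart from one of the members.

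**Figure D3:**
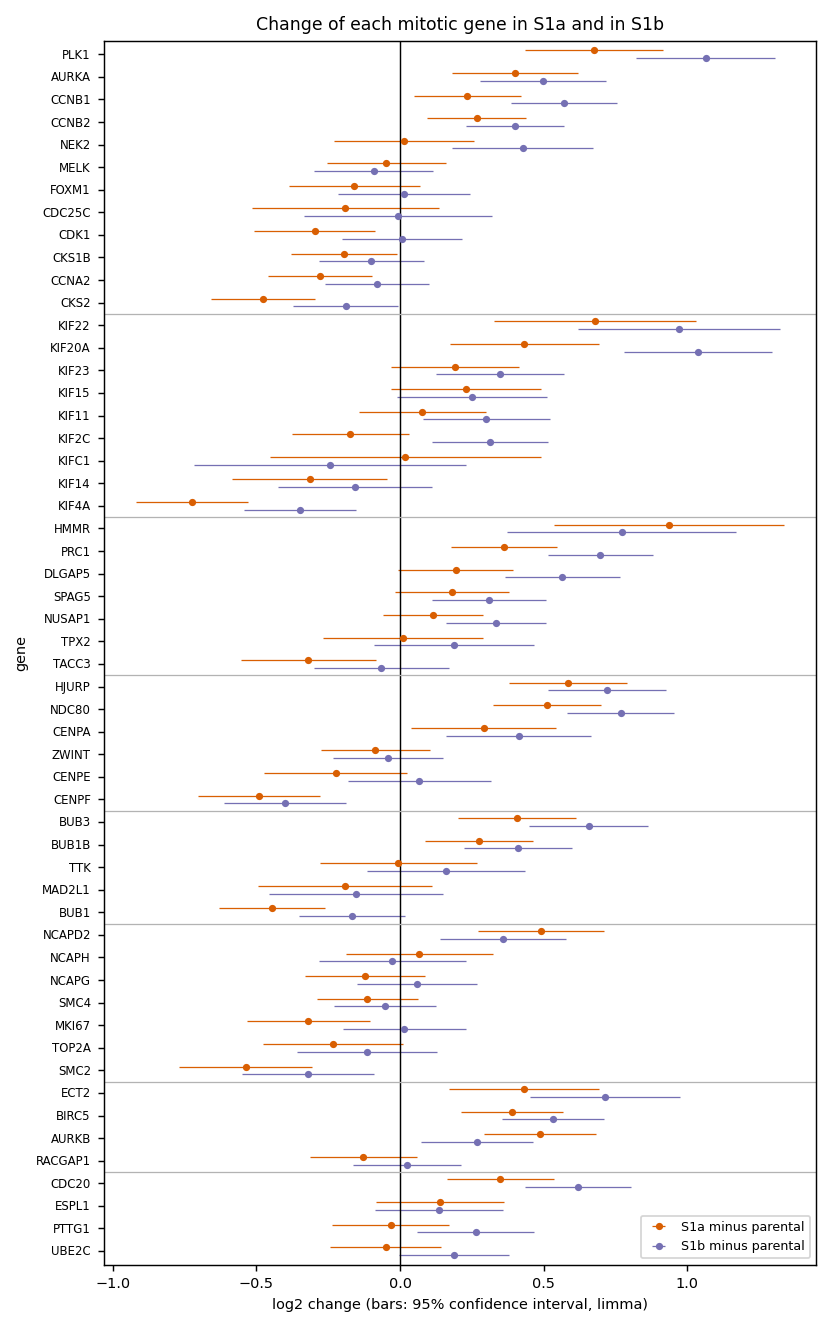
Log2 change of each of the 54 mitotic genes in S1a (orange) and in S1b (purple) against the same parental arrays. Points are fitted changes, bars are 95% confidence intervals from limma, and grey lines part the roles. The purple point lies to the right of the orange one for 47 of the 54 genes.

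Between the isolates, the mitotic genes were mostly a little brighter in S1b than in S1a, and few differences passed the test. The fitted S1b minus S1a change was above 0 for 47 of 54 members, 87.0%, where 51.4% of all genes and 53.2% of genes as bright as the dimmest member were. Both S1b arrays lay above both S1a arrays for 39 members, 72.2%, where 25.7% of all genes did, and below both for 2 members, 3.70%, where 23.9% did. The members' median was 0.18 on the log2 scale, against 0.01 over all genes. That median was 0.18 to 0.19 and the count 47 under each of the 3 other scalings. By array, the median member lay at -0.03 and -0.04 from its own mean in S1a, at 0.11 and 0.10 in S1b, and at -0.10 and -0.07 in parental cells, where the median of all genes was -0.01 to 0.03.

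At an adjusted p under 0.05, 2 members were higher in S1b and 0 lower in limma, where 0.462% of all genes were higher and 1.42% lower. At an unadjusted p under 0.05 the member counts were 23 higher and 1 lower, where 6.52% of all genes were higher and 8.39% lower. KIF20A was 1.52-fold higher in S1b, 0.60 ± 0.12 on the log2 scale (2 arrays against 2, adjusted p = 0.0338). KIF2C, the kinesin that takes microtubules apart at centromeres, gave 4302 and 4153 units in S1b and 3128 and 2912 in S1a, with 3190 and 3630 in parental cells. It was higher in S1b by 0.49 ± 0.091 (adjusted p = 0.0322), and its second probe set had the same sign (0.34, adjusted p = 0.125). The KIF20A and KIF2C calls both ended when any 1 of the 4 isolate arrays was left out, with changes of 0.53 to 0.67 for KIF20A and 0.41 to 0.54 for KIF2C over all settings.

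The next members by p-value were also higher in S1b and did not pass. KIF4A differed by 0.38 (adjusted p = 0.0678), DLGAP5 by 0.37 (adjusted p = 0.0751), PRC1 by 0.34 (adjusted p = 0.0781) and CCNB1 by 0.34 (adjusted p = 0.0783). PLK1 differed by 0.39 (adjusted p = 0.118). AURKB went the other way, at -0.22 (95% confidence interval -0.41 to -0.02, adjusted p = 0.272). The counts of calls depend on the spread estimate: leaving out a parental array gave more calls, with the fitted differences between isolates as before. Leaving out an isolate array removed the calls. No share over all genes is given for these fits.

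**Figure D4:**
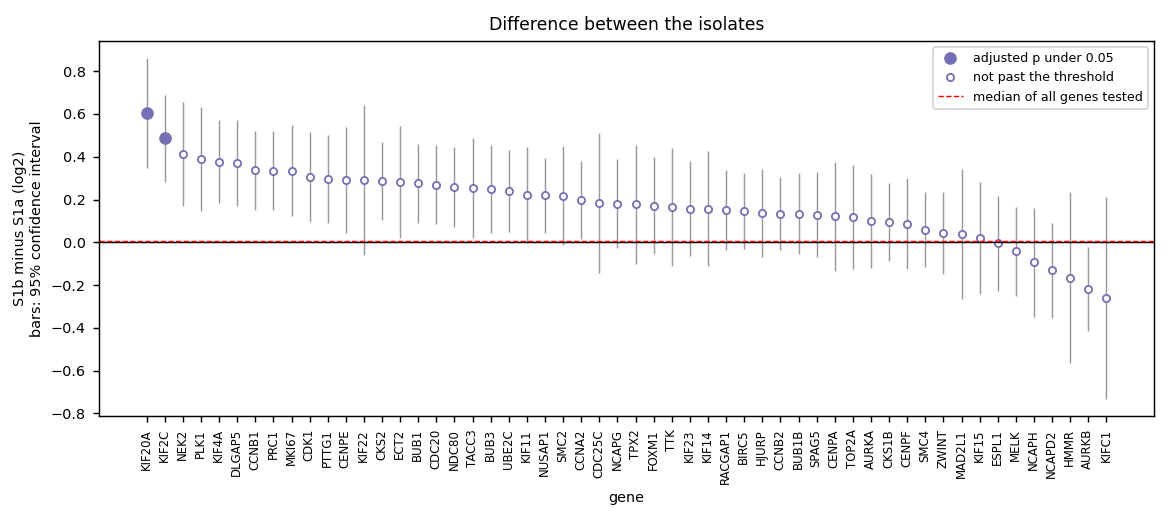
S1b minus S1a difference of each mitotic gene on the log2 scale, in falling order, with 95% confidence intervals from limma. Filled points, KIF20A and KIF2C, passed the threshold of 0.05, open points did not, and the dashed line is the median of all genes tested at 0.01.

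Several members were read by more than 1 probe set. The 54 genes had 86 probe sets, of which 84 passed the filter on dim probe sets, and 19 genes had more than 1. For the isolates against parental, 10 of these 19 genes had probe sets of 1 sign and 9 of both signs, and no gene had probe sets called in opposite directions. With every probe set tested on its own, 29 of the 84 rose and 6 fell. The genes of both signs were CDC25C, CDK1, CENPF, MKI67, NCAPG, NEK2, NUSAP1, SMC4 and TOP2A, of which CENPF and NUSAP1 passed on the probe set used. CDK1, for example, ranged from -0.15 to 0.16 over its probe sets, NEK2 from -0.15 to 0.22 and TOP2A from -0.17 to 0.02. For S1b minus S1a, 68 of 84 probe sets were above 0. No share over all probe sets was taken, and with 1 probe set per gene 51.4% of all genes tested were above 0. Of the 19 genes, 12 had probe sets of 1 sign in S1b minus S1a and 7 of both signs. CDK1 was among the 7, with 0.30 on the probe set used and -0.08 and -0.03 on the others.

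Cell cycle genes outside the list gave a mixed picture. Of 163 symbols in 7 further lists, 125 were tested, of which 41 rose and 19 fell in the isolates, 32.8% and 15.2%, with a median of 0.08 on the log2 scale. Over all genes tested, 22.7% rose and 23.5% fell. Among genes at least as bright as the dimmest member, 32.6% rose and 25.2% fell, though some genes of these lists are dimmer. Of 24 further kinetochore, passenger and checkpoint genes tested, 7 rose and 2 fell. CENPN, a centromere protein that recognises CENPA, gave 3206 and 3131 units in S1a and 3276 and 3018 in S1b, against 1704 and 1713 in parental cells (0.88 ± 0.071, adjusted p = 9.43e-06). MAD1L1, the partner of Mad2, rose by 0.77 (adjusted p = 0.000291), and CENPI fell by 0.79 (adjusted p = 0.000562).

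Of 11 genes of the anaphase-promoting complex and its regulators, 6 rose and the other 5 did not pass. UBE2S, which extends the ubiquitin chains that UBE2C starts, rose by 0.53 (adjusted p = 0.00034), ANAPC10 by 0.69 (adjusted p = 0.000772) and CDC16 by 0.34 (adjusted p = 0.00725). CDC16 gave 3125 and 2895 units in S1a and 1999 and 2141 in S1b, against 1828 and 2109 in parental cells. In limma it rose in S1a (0.61, adjusted p = 0.00087) and did not pass in S1b (0.075, adjusted p = 0.566). It was lower in S1b than in S1a (-0.54, adjusted p = 0.0271). Of 13 cohesin and further condensin genes, 4 rose and 2 fell, with SMC1A of cohesin at -0.61 (adjusted p = 6.99e-05), PDS5A, which regulates cohesin, at -0.56 (adjusted p = 0.000261) and NCAPH2 of condensin II at 0.65 (adjusted p = 0.00392).

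Of 29 further spindle, motor and cytokinesis genes, 13 rose and 4 fell. DYNC1H1, the heavy chain of dynein, rose by 1.20 (adjusted p = 2.14e-05), GTSE1, a microtubule-bound protein of G2 and M, by 1.05 (adjusted p = 3.55e-05), and TUBG1, gamma-tubulin, by 0.51 (adjusted p = 0.000243). In this list 26 of 29 genes, 89.7%, were above 0 in S1b minus S1a, where 51.4% of all genes were. Of 19 genes that control mitotic entry, 6 rose and 2 fell. Among the 6, CCNH and MNAT1, partners of CDK7 in the CDK-activating kinase, rose by 0.80 (adjusted p = 1.27e-05) and 0.54 (adjusted p = 0.000738), and ARPP19, an inhibitor of the phosphatase that opposes CDK1, by 0.37 (adjusted p = 0.00425).

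The transcription factors of cell cycle genes and the DREAM complex had 3 rises and 6 falls among 17 tested, 17.6% and 35.3%, where 22.7% of all genes rose and 23.5% fell. The list had 2 rises and 7 falls in S1a and 2 and 4 in S1b. E2F8, an E2F repressor, gave 673 and 642 units in S1a and 739 and 769 in S1b, against 1603 and 1474 in parental cells (-1.12 ± 0.083, adjusted p = 5.79e-06). NFYA, the DNA-binding subunit of the CCAAT factor NF-Y, gave 331 and 383 units in S1a and 415 and 402 in S1b, against 866 and 734 in parental cells (-1.05 ± 0.11, adjusted p = 5.83e-05), while its partner NFYC rose by 0.59 (adjusted p = 0.00205). All 4 isolate arrays lay below both parental arrays for E2F8 and NFYA. Of 12 G1 cyclins and CDK inhibitors, 2 rose and 3 fell, with CCND3 at -0.84 (adjusted p = 9.26e-05), CDKN3, a phosphatase that acts on CDK1 and CDK2, at 0.47 (adjusted p = 0.000702) and CCND1 at 0.46 (adjusted p = 0.00172). Over the 7 lists, 89 of 125 genes, 71.2%, were above 0 in S1b minus S1a, where 51.4% of all genes were. By adjusted p, SPC25, a partner of NDC80, was higher in S1b (0.48, adjusted p = 0.0472), and CDC16 was the 1 lower.

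The change of each member was set beside that of its 10 nearest tested genes along the chromosome, 5 on each side in RefSeq order. For the 5 members that fell, the median change of the neighbours was below 0 in 5 of 5 and at least 0.5 times the member's own change in 4. KIF4A on chromosome X fell by 0.54, with a neighbours' median of -0.58 and 0 of 10 neighbours above 0. CKS2 and SMC2, both on chromosome 9, had neighbours' medians of -0.67 and -0.54, and CENPF on chromosome 1 had -0.39, while BUB1 on chromosome 2 had -0.02. Among the 22 that rose, the neighbours' median was above 0 in 15 and at least 0.5 times the member's change in 5. Neighbours were taken for the members only. It is therefore not known how often other called genes would give the same, and these counts cannot be read as particular to the members. AURKA on chromosome 20 had 0.53, AURKB on chromosome 17 had 0.52 and CENPA on chromosome 2 had 0.36, each close to or above the member's own change.

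Other risen members rose by more than the median of their neighbours. PLK1 rose by 0.87 with a neighbours' median of 0.13, HJURP by 0.65 with -0.0015, PRC1 by 0.53 with -0.04 and ECT2 by 0.57 with -0.30. HMMR on chromosome 5 rose by 0.85, with a neighbours' median of 0.33 and 10 of 10 neighbours above 0. DNA copy number was not measured here, and the part of position in these changes was not tested.

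**Figure D5:**
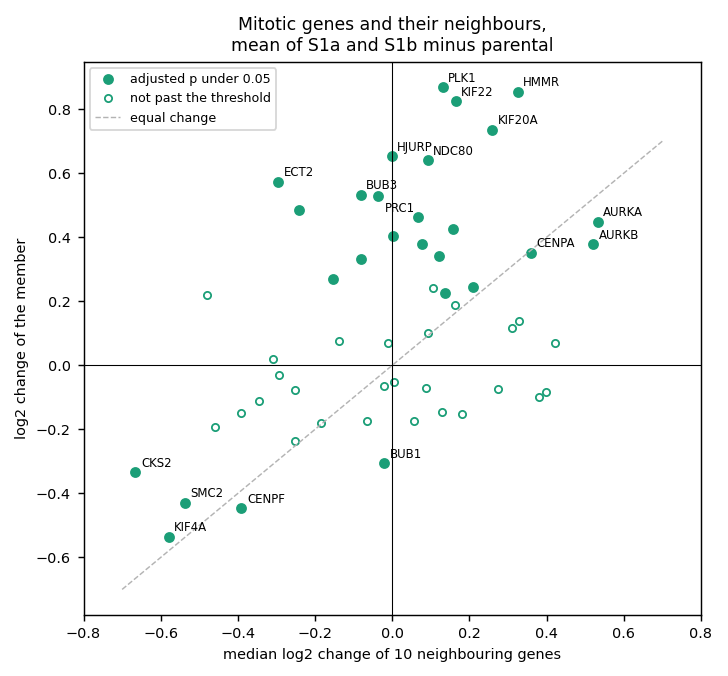
Log2 change of each mitotic gene (vertical axis) against the median log2 change of its 10 nearest tested genes (horizontal axis), both for the mean of S1a and S1b minus parental. Filled points passed the threshold of 0.05, open points did not, and the dashed line marks equal change. KIF4A, CENPF and SMC2 lie near the line at the lower left with CKS2 above it, AURKA, AURKB and CENPA near it at the right, and PLK1, HJURP and NDC80 far above it.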

How the data were processed

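Biotin-labelled total RNA of the 3 populations was hybridised to 6 Affymetrix arrays. The deposited intensity values are linear signals, 1 per probe set and array. Per the submitters' processing notes MAS5 produced them, and its version is not given in the sources used. Groups came from the titles. Neither scanner files nor detection calls were used, arrays have no read depth, and 2 arrays per group limit the precision.

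Of 22277 probe sets, 62 controls were left out and 19064 of the rest had 1 gene symbol, 1043 several and 2108 none, of which only those with 1 were named. Symbols were updated through RefSeq (GRCh38.p14). The deposited intensity was analysed as log2(signal + 3.942), the 10th percentile, so changes of dim genes are understated. Each gene took its probe set with the highest mean, and probe sets with a mean under the 40th percentile (44.0 units) were dropped, so that 7791 genes entered the test. The 3 group means were fitted to all 6 arrays in limma 3.58.1 (R 4.3.3) with variances that follow the mean signal (3 residual and 7 prior degrees of freedom), and p-values were adjusted by Benjamini-Hochberg over all genes within a contrast. The procedure was tested on simulated data.

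The members, the further lists and the tests were chosen with earlier results of these data known. Named with values were the 10 members with the smallest p, every member that fell, up to 4 members per role and 3 genes per further list by p, the first 6 members of S1b against S1a, members with probe sets of opposite sign and, whatever their values, CDK1, CCNB1, PLK1, AURKA, AURKB, MKI67, TOP2A and FOXM1. SPAG5, CCNA2 and further members that did not pass are named to account for each role. Alternatives were other scalings, pseudocounts, filters, probe set rules, spread estimates, a replicate block and leaving out each array.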

Additional observations from a re-analysis of the deposited data

Results flagged for a closer look

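The difference between the isolates under the same contrast passed the test of the difference itself for 2 of the 54 members. KIF20A differed by 0.60 on the log2 scale in S1b minus S1a (limma, adjusted p = 0.0338; both S1b arrays above both S1a arrays). KIF2C differed by 0.49 (limma, adjusted p = 0.0322; both S1b arrays above both S1a arrays). Over all genes tested, 0.462% were higher in S1b at this threshold. KIF20A lost its call in 7 and KIF2C in 9 of the 19 settings tried, and both kept their sign.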

How the results depend on the processing

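Of the 27 calls against parental, 11 held in all 19 settings, 7 held in the 18 settings that gave them a value, and 9 were lost in at least 1 (AURKA, BUB1, CENPA, CENPF, CKS2, KIF23, NUSAP1, SMC2 and SPAG5). CENPF changed sign, to 0.013, when probe sets with shared-probe suffixes were left out, which leaves its dimmest probe set. That setting leaves 35 members and called 14 of them for the mean of the isolates, 14 for S1a and 16 for S1b, with median log2 changes of 0.077, 0.066 and 0.19, and 0.20 for S1b minus S1a. Median centring gave medians of 0.30 (mean of isolates), 0.20 (S1a) and 0.41 (S1b) and 1 call for S1b minus S1a. Cyclic loess gave 0.093 for the mean and 0.20 for S1b, the mean of probe sets 0.094, 0.20 and, for S1b minus S1a, 0.16, and every probe set 0.073 and 0.18. With no variance trend S1a had 16 calls. For S1b minus S1a, limma called 0 members with no filter, the mean of probe sets or no variance trend, against 23 higher and 1 lower at an unadjusted p under 0.05 as deposited, and 7 with array weights. Leaving out 1 array gave 14 to 26 calls and medians of 0.0095 to 0.094 for S1a, medians of 0.10 to 0.15 for the mean and 0.20 to 0.26 for S1b, and 0 to 11 calls and medians of 0.18 to 0.21 for S1b minus S1a. Arrays with the same replicate number did not deviate together over all genes (correlations of -0.058, -0.0046 and -0.067 across 7791 genes, which are not independent). A batch that moved only some genes could go unseen in such a correlation. The replicate block gave 28 calls for the mean, 24 for S1a, 25 for S1b and 1 for S1b minus S1a. Shares over all genes are not given for the counts in this section, so a general loss or gain of calls cannot be told apart from one of the members. The causes of these shifts were not tested.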
